A study of Homo sapiens with 14 samples.

Results

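The 8 genes described here are known from neurons and hormone-secreting cells and were read in PANC-1, a human cell line grown from a carcinoma of the pancreatic duct. They are SYT1, SNAP25, CHGB, SCG5, TUBB3, NEFL, ANK2 and SLITRK6, 8 of the 18129 genes with a probe set (a group of short probes for 1 transcript) that names a single gene. The gene names were chosen with earlier results of these arrays known, and for each gene the probe set kept was selected on its mean over all 14 arrays, with no limit on brightness. The arrays fall into 4 groups: TGFb1 at 5 ng/ml with sodium valproate at 2 mM (3 arrays), TGFb1 at 5 ng/ml with acriflavine at 2.5 µM (3 arrays), TGFb1 at 5 ng/ml alone (4 arrays), and control (4 arrays). In every group, the controls included, cells had spent 24 h in 1% serum before the 48 h of treatment. The labels call the replicates biological and describe replicate 4 of the TGFb1 and control groups as an addition to the other 3. Valproate inhibits histone deacetylases, acriflavine is an acridine dye preparation that binds DNA, and TGFb1 is a cytokine that drives epithelial cells towards mesenchymal traits. The study asked how the inhibitors alter the response to TGFb1. Neither inhibitor was given without TGFb1 in the arrays used here, and 1 cell line at 1 dose of each agent is described.

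Neurons and endocrine cells share a machinery of regulated secretion: cargo proteins such as the granins are packed into dense-core granules, SNARE proteins such as SNAP25 pull the granule membrane onto the plasma membrane, and synaptotagmins sense the calcium that triggers fusion. Neurons add a cytoskeleton of their own, with class III beta-tubulin, neurofilaments and ankyrins, and surface proteins of the SLITRK family that shape neurites and synapses. In cells outside the nervous system many of these genes are held down by REST, a repressor that works with CoREST proteins and histone deacetylases.

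Values below are log2 intensities, and a change is a difference of group means on the log2 scale ± the standard error (SE) from limma. The words rose and fell are used of genes with an adjusted p under 0.05, by the Benjamini-Hochberg method over all 18129 genes. Array medians lay between 7.16 and 7.21. Replicate 4 of the TGFb1 group stood furthest from its own group, with a standard deviation (SD) over genes of 0.332, and TGFb1 replicate 2 (0.232) and control replicate 4 (0.230) came next. The same measure spanned 0.0831 to 0.146 in the rest. The number of arrays limits the precision.

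Of the 8 genes, 4 rose with valproate and fell with acriflavine, each against TGFb1 alone. Over all genes 11.5% rose with valproate and 12.3% fell with acriflavine, and the share that did both was not counted. With valproate added to TGFb1, SYT1, SLITRK6, CHGB, ANK2 and SNAP25 rose by 1.50-fold to 3.15-fold. With acriflavine added to TGFb1, SYT1, SLITRK6, CHGB and ANK2 fell by 2.39-fold (CHGB) to 11.8-fold in intensity (ANK2), and TUBB3 fell 1.49-fold. TGFb1 alone raised SLITRK6 2.74-fold, TUBB3 1.75-fold and SYT1 1.55-fold over control. SCG5 and NEFL were dim in every group and did not pass for either inhibitor against TGFb1 alone. Both inhibitor comparisons share the TGFb1 arrays, so their values are given side by side and were not correlated.

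For valproate with TGFb1 against TGFb1 alone, 5 of the 8 genes rose and 0 fell, where 11.5% of all genes rose and 10.2% fell. Their median change was 0.88, against -0.02 for all genes, and in 5 of the 8 the arrays of the groups did not overlap, as in 26.9% of all genes. For acriflavine with TGFb1 against TGFb1 alone, 0 of the 8 rose and 5 fell, where 16.4% of all genes rose and 12.3% fell. The median was -0.91, against -0.0021 for all genes, and 6 of the 8 did not overlap, as in 32.4% of all genes. These 6 include SCG5, which lay higher with acriflavine and did not pass. For TGFb1 alone against control, 3 rose and 0 fell, where 5.03% of all genes rose and 6.05% fell. The median was 0.07, against 0.02 for all genes, and 2 of the 8 did not overlap, as in 13.1% of all genes. With the replicate number as a block, 3 of these genes again rose, while the calls over all genes numbered 3319, against 2009 without it. Since the genes were chosen with results in view, these counts describe the set and say nothing of how it compares with other sets.

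**Figure D1:**
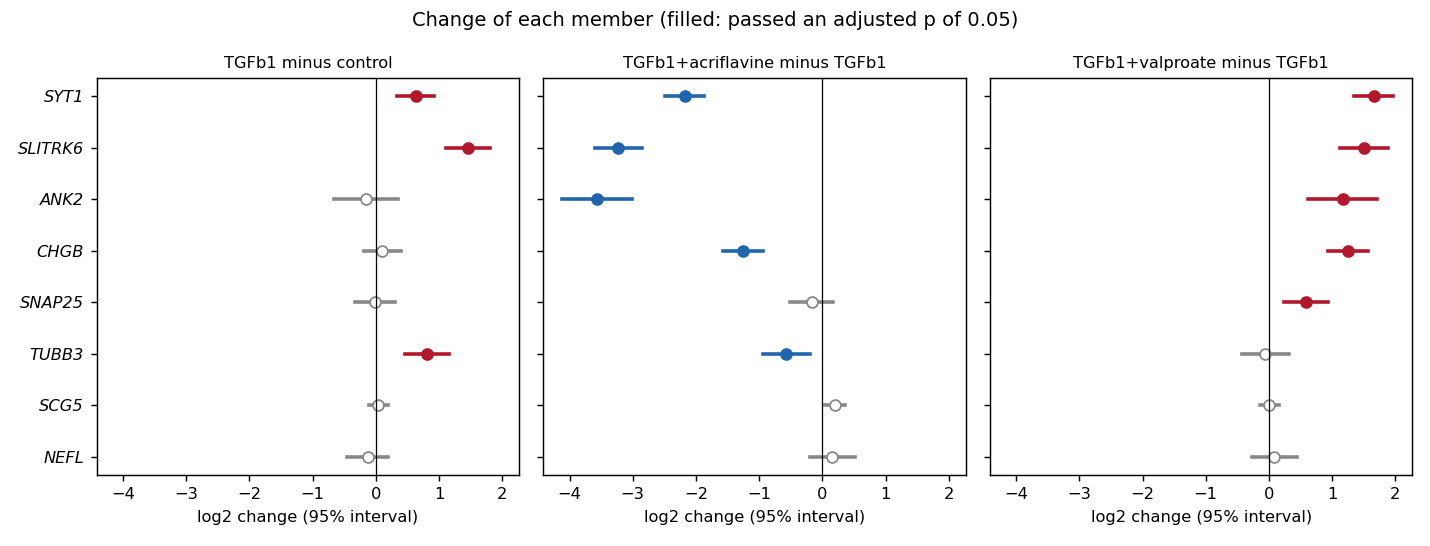
Each row is a gene and each panel a comparison: TGFb1 minus control, TGFb1+acriflavine minus TGFb1 and TGFb1+valproate minus TGFb1. Points are log2 changes and lines their 95% intervals, filled where the adjusted p passed 0.05. ANK2 lay at -3.56 with acriflavine and at 1.17 with valproate, while SCG5 and NEFL stayed within 0.21 of 0 in all 3 panels.

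The start-site windows of the genes that moved furthest are printed here to show which short promoter motifs they hold. The windows run from 250 bases before to 50 after the annotated start, from RefSeq on GRCh38.p14, and read 5′ to 3′ on the gene's own strand. NEFL was not looked up, and CHGB and SNAP25 matched no window. The other 5 of the 8 genes did: ANK2 with 10 windows, TUBB3 with 2, and SYT1, SLITRK6 and SCG5 with 1 each. A script searched both strands for 9 motifs, and the capitals mark what it found. The shares of all 35116 windows that hold each motif were 11.5% for the TATA box TATAAA, 34.6% for the CCAAT box CCAAT, 45.0% for the GC box GGGCGG, 4.95% for the AP-1 element TGACTCA, 20.6% for the SNAI and ZEB E-box CACCTG, 0.202% for the SMAD palindrome GTCTAGAC, 1.85% for the cyclic AMP element TGACGTCA, 0.376% for the left part TTCAGCACC of the REST element, and 0.866% for the ATF4 and CEBP composite TGATGCAA. In the windows below the marked motifs do not overlap. SYT1 (chr12:78864524-78864823, plus strand) held a CCAAT box read on each strand and 1 GC box. SLITRK6 (chr13:85799370-85799669, minus strand) held an AP-1 element at -20, counted from the start. Of the 10 ANK2 windows, 1 (chr4:112817855-112818154, plus strand) held the ATF4 and CEBP composite (at -122) together with an E-box (at -155). The same composite stood at -48 in 1 of the 5 windows of BCAT1 (chr12:24949052-24949351, minus strand), the gene whose profile over the arrays was nearest to that of ANK2 (below). That window also held a GC box (at -84), and another BCAT1 window held a TATA box, a CCAAT box and the SMAD palindrome. The shares above count single windows, so a gene with 10 or 5 windows has more chances to hold a motif. The 3 windows of COL21A1, the gene nearest to SYT1 (below), held only a GC box, and SLC7A11, second nearest to ANK2, matched no window. A link between these motifs and the profiles was not tested.
SYT1: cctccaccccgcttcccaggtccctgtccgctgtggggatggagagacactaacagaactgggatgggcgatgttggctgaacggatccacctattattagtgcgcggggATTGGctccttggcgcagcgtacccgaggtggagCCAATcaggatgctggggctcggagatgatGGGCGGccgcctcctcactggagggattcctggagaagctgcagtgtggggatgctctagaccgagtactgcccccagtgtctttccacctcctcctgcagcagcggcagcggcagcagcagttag
SLITRK6: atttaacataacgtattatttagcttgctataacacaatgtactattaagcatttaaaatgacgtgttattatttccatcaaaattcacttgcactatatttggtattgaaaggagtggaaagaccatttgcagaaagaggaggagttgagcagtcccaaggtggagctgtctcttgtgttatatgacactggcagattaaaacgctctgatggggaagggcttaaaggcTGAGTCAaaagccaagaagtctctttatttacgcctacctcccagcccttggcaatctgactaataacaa
ANK2: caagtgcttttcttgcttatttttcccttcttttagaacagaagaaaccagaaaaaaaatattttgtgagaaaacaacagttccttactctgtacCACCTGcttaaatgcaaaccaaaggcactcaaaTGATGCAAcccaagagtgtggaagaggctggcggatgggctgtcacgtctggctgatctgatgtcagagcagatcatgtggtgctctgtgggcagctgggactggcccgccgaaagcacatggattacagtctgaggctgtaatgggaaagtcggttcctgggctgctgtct
BCAT1: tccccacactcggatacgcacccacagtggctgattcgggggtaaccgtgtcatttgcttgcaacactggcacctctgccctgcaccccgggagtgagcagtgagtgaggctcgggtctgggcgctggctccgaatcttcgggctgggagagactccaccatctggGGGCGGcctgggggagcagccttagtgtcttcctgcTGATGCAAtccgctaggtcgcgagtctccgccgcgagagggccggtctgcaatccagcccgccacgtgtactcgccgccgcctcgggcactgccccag
TUBB3 also held an AP-1 element, at -21 in 1 of its 2 windows. The left part of the REST element was in no window of these 5 genes, which says only that these letters are not in these windows. A match in a window is a description of its letters. Which start site the cells used was not measured.

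SYT1 encodes synaptotagmin-1, the calcium sensor of fast vesicle release. Its log2 intensity was 9.99, 10.31 and 10.01 in the valproate arrays, 6.26, 6.14 and 6.41 in the acriflavine arrays, 8.60, 8.02, 8.64 and 8.51 in the TGFb1 arrays, and 7.67, 7.70, 7.84 and 8.04 in the control arrays. The valproate arrays all stood above and the acriflavine arrays all below those of the other groups, while TGFb1 replicate 2 lay just under control replicate 4. Against TGFb1 alone, SYT1 rose by 1.66 ± 0.145 with valproate (adjusted p = 2.16e-06) and changed by -2.18 ± 0.145 with acriflavine (adjusted p = 9.36e-08). TGFb1 alone raised it by 0.63 ± 0.134 over control (adjusted p = 0.00637). The order of the group means was valproate at 10.10, TGFb1 at 8.44, control at 7.81 and acriflavine at 6.27. In this kept probe set each neighbour in that order differed past the threshold.

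SNAP25, a plasma membrane SNARE, was dimmer, and its kept probe set lay at the 31.6th percentile of all genes by mean level. Log2 intensities were 6.68, 6.70 and 6.74 in the valproate arrays, 6.05, 6.01 and 5.81 in the acriflavine arrays, 5.96, 6.36, 5.89 and 6.28 in the TGFb1 arrays, and 5.98, 5.95, 5.98 and 6.64 in the control arrays. The valproate arrays lay above all others, narrowly so over control replicate 4, and the remaining groups overlapped. SNAP25 rose by 0.59 ± 0.159 with valproate against TGFb1 alone (adjusted p = 0.0152), and without valproate replicate 3 the change was 0.57 with an adjusted p of 0.0549. Its difference between acriflavine with TGFb1 and TGFb1 alone was -0.16 ± 0.159 (adjusted p = 0.514, 95% interval -0.51 to 0.18). Between TGFb1 and control it was -0.01 ± 0.147 (adjusted p = 0.97).

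CHGB encodes chromogranin B, a granin of dense-core granules. The arrays read 8.98, 9.13 and 9.03 in the valproate arrays, 6.61, 6.45 and 6.56 in the acriflavine arrays, 7.62, 7.60, 7.81 and 8.16 in the TGFb1 arrays, and 7.65, 7.42, 7.63 and 8.06 in the control arrays. Valproate arrays were the highest and acriflavine arrays the lowest with no overlap, and the TGFb1 and control arrays lay in between on the same ground. CHGB rose by 1.25 ± 0.146 with valproate (adjusted p = 2.43e-05) and changed by -1.26 ± 0.146 with acriflavine (adjusted p = 1.50e-05), each against TGFb1 alone. Its difference between TGFb1 and control was 0.11 ± 0.135 (adjusted p = 0.715, 95% interval -0.18 to 0.40). Replicate 4 was the highest array for CHGB in the TGFb1 group and in the control group.

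SCG5, a granule protein that acts as chaperone of a prohormone convertase, lay at the 11.9th percentile by level. It read 4.60, 4.64 and 4.73 in the valproate arrays, 4.74, 4.90 and 4.91 in the acriflavine arrays, 4.63, 4.72, 4.57 and 4.68 in the TGFb1 arrays, and 4.64, 4.64, 4.58 and 4.55 in the control arrays. The acriflavine arrays stood slightly above all others, and the other 3 groups overlapped. Acriflavine with TGFb1 minus TGFb1 alone gave 0.20 ± 0.0729 (adjusted p = 0.0508). Against control, SCG5 rose by 0.25 ± 0.0729 with acriflavine (adjusted p = 0.0179), and without acriflavine replicate 2 or replicate 3 the adjusted p was 0.0781 each time. With valproate the difference from TGFb1 alone was 0.01 ± 0.0729 (adjusted p = 0.964).

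TUBB3, class III beta-tubulin, was by far the brightest of the 8, at the 90.0th percentile by level. Levels were 11.59, 11.17 and 11.45 in the valproate arrays, 10.87, 10.94 and 10.86 in the acriflavine arrays, 11.20, 11.58, 11.14 and 11.91 in the TGFb1 arrays, and 10.42, 10.63, 10.59 and 10.96 in the control arrays. All TGFb1 arrays lay above all control arrays, and the valproate arrays fell within the TGFb1 range. TUBB3 rose by 0.81 ± 0.159 with TGFb1 alone over control (adjusted p = 0.00359) and changed by -0.57 ± 0.172 with acriflavine against TGFb1 alone (adjusted p = 0.021). Leaving out acriflavine replicate 1, 2 or 3 gave an adjusted p of 0.0678, 0.0513 or 0.0643 for the acriflavine difference. With valproate the difference from TGFb1 alone was -0.06 ± 0.172 (adjusted p = 0.875, 95% interval -0.43 to 0.31). Its single probe set carries the suffix _x_at, which marks probes that may match other transcripts, and other beta-tubulins are near in sequence.

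NEFL, the light neurofilament chain, was at the 12.8th percentile. By array it read 4.81, 4.61 and 4.81 in the valproate arrays, 4.70, 4.77 and 4.97 in the acriflavine arrays, 4.53, 5.17, 4.60 and 4.33 in the TGFb1 arrays, and 4.78, 4.68, 5.07 and 4.62 in the control arrays. The 4 groups overlapped throughout, and the TGFb1 arrays alone spanned the lowest and the highest value. Against TGFb1 alone, the difference was 0.09 ± 0.165 with valproate (adjusted p = 0.793) and 0.16 ± 0.165 with acriflavine (adjusted p = 0.556). TGFb1 minus control gave -0.13 ± 0.153 (adjusted p = 0.687).

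ANK2 encodes ankyrin-B, which ties membrane proteins to the spectrin skeleton of axons. Its level was 9.37, 9.91 and 9.43 in the valproate arrays, 4.97, 5.09 and 4.46 in the acriflavine arrays, 8.80, 7.97, 8.97 and 7.87 in the TGFb1 arrays, and 8.73, 8.21, 8.73 and 8.57 in the control arrays. The acriflavine arrays stood far under every other array, and the valproate arrays stood above all others. ANK2 changed by -3.56 ± 0.258 with acriflavine against TGFb1 alone (adjusted p = 1.92e-07), the largest change among the kept probe sets of the 8 genes in that comparison, and rose by 1.17 ± 0.258 with valproate (adjusted p = 0.0042). The mean of its 5 probe sets changed by -1.18 with acriflavine. Its acriflavine mean of 4.84 was as low as those of SCG5 (4.85) and NEFL (4.81), and SLITRK6 (4.99) was near them. Background at such levels was not measured, so folds of ANK2 and SLITRK6 with acriflavine are folds of intensity only. TGFb1 minus control gave -0.16 ± 0.238 (adjusted p = 0.767). Replicates 1 to 3 alone gave 0.02 for it, and the replicates 4 gave -0.70.

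SLITRK6 encodes a leucine-rich transmembrane protein known from inner ear innervation and from neurite growth. The 14 arrays read 9.63, 9.95 and 9.60 in the valproate arrays, 5.02, 4.79 and 5.16 in the acriflavine arrays, 8.17, 7.71, 8.59 and 8.40 in the TGFb1 arrays, and 6.65, 6.71, 6.69 and 7.00 in the control arrays. No 2 groups overlapped. SLITRK6 rose by 1.46 ± 0.162 with TGFb1 alone over control (adjusted p = 2.98e-05) and by a further 1.50 ± 0.175 with valproate (adjusted p = 2.31e-05). With acriflavine it changed by -3.23 ± 0.175 against TGFb1 alone (adjusted p = 1.56e-08). Replicates 1 to 3 alone gave a TGFb1 difference of 1.47, and the replicates 4 gave 1.40.

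**Figure D2:**
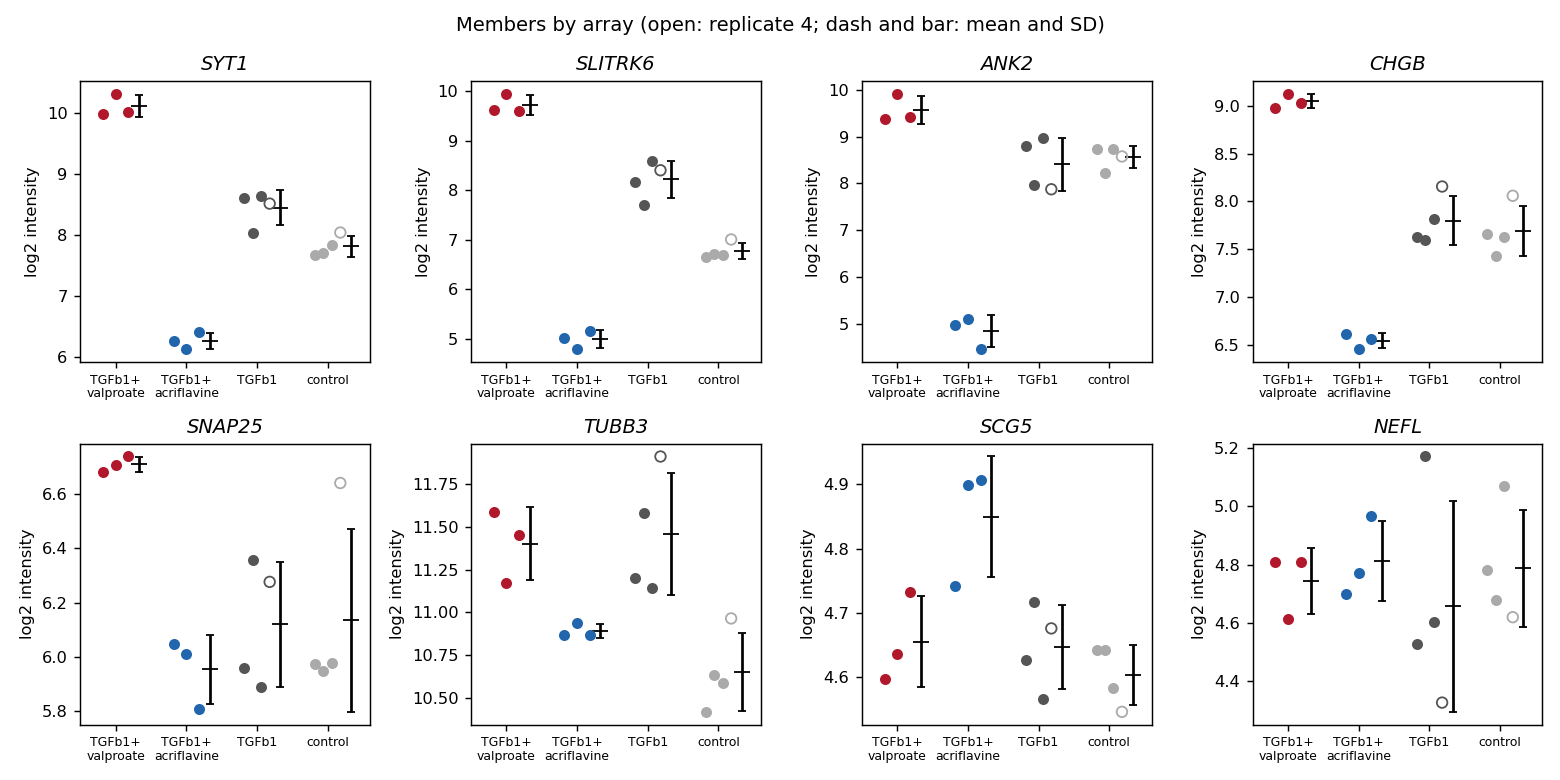
Log2 intensity of each gene in every array, by group, with open circles for replicate 4 and a dash and bar for the group mean and SD (n = 3 for TGFb1+valproate and TGFb1+acriflavine, n = 4 for TGFb1 and control). Vertical axes differ between genes: SCG5 spans 4.55 to 4.91 and ANK2 4.46 to 9.91. SYT1, SLITRK6, ANK2 and CHGB show the valproate arrays above and the acriflavine arrays below all others.

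Set directly against each other, acriflavine with TGFb1 was lower than valproate with TGFb1 for 6 of the 8 genes and higher for 0, where 16.6% of all genes fell and 18.9% rose in that direction. The arrays did not overlap for 7 of the 8, as for 55.4% of all genes. SLITRK6 changed by -4.73 ± 0.187 (adjusted p = 6.03e-10) and ANK2 by -4.73 ± 0.275 (adjusted p = 1.58e-08), where both acriflavine means lay at the level of the dim genes. In intensity, SYT1 was 14.3-fold lower and CHGB 5.68-fold lower. SNAP25 changed by -0.75 ± 0.170 (adjusted p = 0.00271). TUBB3 changed by -0.51 ± 0.184 (adjusted p = 0.0416), and this call was lost without acriflavine replicate 1, 2 or 3, valproate replicate 1 or 3, or control replicate 2 or 3, with adjusted p values from 0.0533 to 0.151. SCG5 differed by 0.19 ± 0.0780 (adjusted p = 0.068) and NEFL by 0.07 ± 0.176 (adjusted p = 0.817). Acriflavine at 2.5 µM and valproate at 2 mM are single doses, so the values compare these treatments as given.

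Against untreated control, valproate with TGFb1 raised 6 of the 8 genes and lowered 0, where 13.1% of all genes rose and 12.4% fell. The arrays did not overlap for 6 of the 8, as for 36.4% of all genes. SLITRK6 was 7.78-fold and SYT1 4.89-fold above control, followed by CHGB at 2.56-fold, ANK2 at 2.01-fold, TUBB3 at 1.69-fold and SNAP25 at 1.49-fold. The ANK2 rise of 1.01 ± 0.258 (adjusted p = 0.00917) was 0.84 with an adjusted p of 0.0558 without valproate replicate 2. Without valproate replicate 3 the adjusted p of SNAP25 was 0.0546, against 0.0152 with it. Acriflavine with TGFb1 lowered 4 of the 8 against control and raised 1, SCG5, where 13.8% of all genes fell and 17.6% rose. The arrays did not overlap for 5 of the 8, as for 42.5% of all genes. In intensity, SYT1 was 2.92-fold and CHGB 2.22-fold below control. ANK2 changed by -3.72 and SLITRK6 by -1.77, each to a level with acriflavine at which background was not measured. The acriflavine arrays therefore lay under the untreated level for these 4 genes, 2 of which TGFb1 alone had raised. TUBB3 was 0.24 ± 0.172 above control (adjusted p = 0.35), and 0.34 above it with an adjusted p of 0.0339 when the replicates 4 were left out. In bulk RNA, fewer cells with a transcript and less transcript per cell cannot be told apart.

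The 8 genes are covered by 23 probe sets that name 1 gene, and most sets of a gene moved the same way. The other sets were tested with the adjustment over all probe sets. The 3 sets of SYT1 changed by 1.46 to 1.66 with valproate and by -2.40 to -1.77 with acriflavine, and the second set of SLITRK6 by 1.75 and -2.40. For TGFb1 alone against control the 3 sets of SYT1 changed by 0.47 to 0.63, and the set at 0.52 did not pass (adjusted p = 0.0986). The 4 sets of CHGB ranged from 0.45 to 1.25 with valproate and from -1.26 to -0.34 with acriflavine, and each passed. Of the 5 sets of ANK2, 1 did not pass in either comparison, with 0.03 and 0.06 and a mean level of 4.73, and another with a mean of 5.53 passed for valproate (0.76) but not for acriflavine (-0.43, adjusted p = 0.0663). The sets with means of 5.67 and 5.07 passed in both comparisons. They changed by -0.85 and -1.14 with acriflavine, where the kept set gave -3.56.

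For SNAP25 all 4 sets passed for valproate, at 0.54 to 2.20, and none passed for acriflavine. The set with the largest change, with a mean level of 4.50, read 6.61, 5.47 and 6.56 in the valproate arrays, 3.79, 4.04 and 3.96 in the acriflavine arrays, 3.59, 3.68, 3.85 and 4.94 in the TGFb1 arrays, and 3.90, 3.85, 3.79 and 4.99 in the control arrays (adjusted p = 0.000508 for valproate against TGFb1 alone). There the valproate arrays lay above all others, and both replicates 4 stood about 1 unit over the rest of their groups. For NEFL a set dimmer than the one kept, with a mean of 3.38, read 3.73, 3.61 and 3.63 in the valproate arrays, 3.23, 3.35 and 3.35 in the acriflavine arrays, 3.29, 3.31, 3.22 and 3.29 in the TGFb1 arrays, and 3.33, 3.27, 3.34 and 3.43 in the control arrays. Its valproate arrays did not overlap the others, and it rose by 0.38 (adjusted p = 0.00148), where the kept set gave 0.09.

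**Figure D3:**
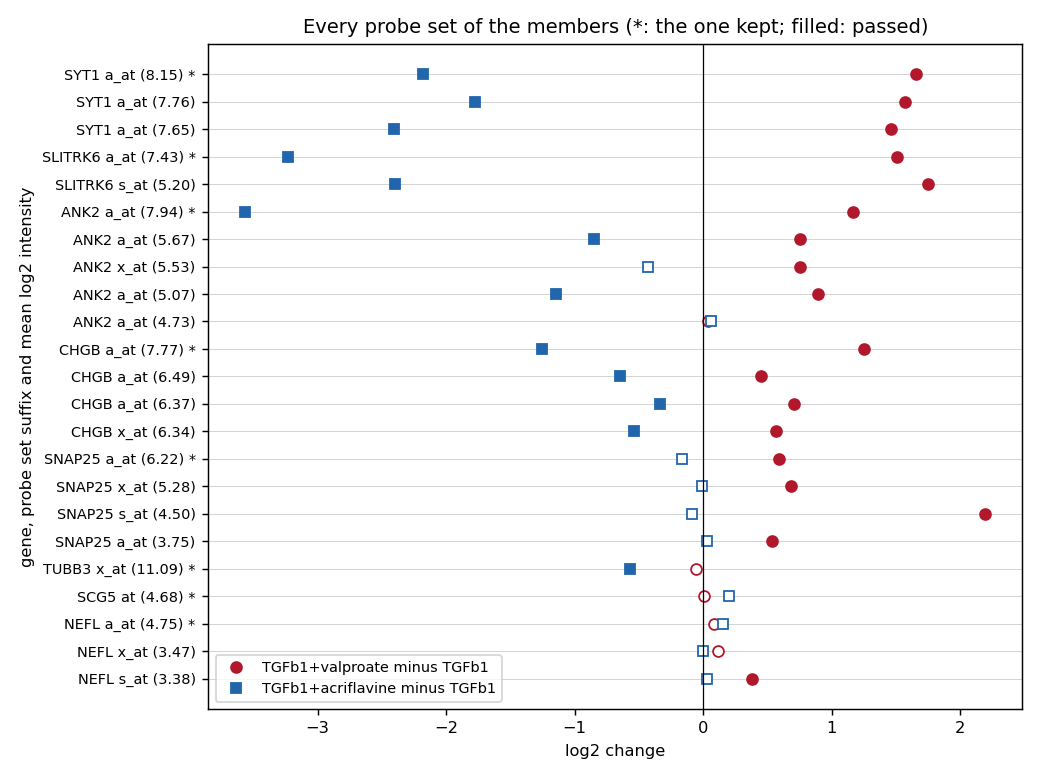
Log2 change of each of the 23 probe sets for TGFb1+valproate minus TGFb1 (circles) and TGFb1+acriflavine minus TGFb1 (squares), filled where the adjusted p over all probe sets was under 0.05. Row labels give the suffix of the probe set and its mean log2 intensity, with a star for the set kept. The sets of SYT1, SLITRK6 and CHGB lie on the same side of 0 within each comparison, and 1 set of ANK2 lies at 0.03 and 0.06.

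The genes whose profiles were nearest were found by the root mean square difference over the 14 arrays between profiles centred on each gene's own mean. For SYT1 it was 0.289 to COL21A1, a collagen, and 0.371 to PCDHB6, a protocadherin, where the SD of SYT1 itself over the arrays was 1.34. COL21A1 averaged 9.22 in valproate, 5.84 in acriflavine, 8.02 in TGFb1 and 7.27 in control arrays. For SLITRK6 the nearest was SYT1 (0.448), followed by COL21A1 (0.557), with an SD of 1.72. For ANK2 the nearest were BCAT1, a branched-chain aminotransferase (0.329), and SLC7A11, the cystine importer (0.402), with an SD of 1.77. BCAT1 averaged 11.06, 6.18, 10.26 and 10.42 in the valproate, acriflavine, TGFb1 and control arrays, and changed by 0.80 ± 0.256 with valproate (adjusted p = 0.0368) and by -4.08 ± 0.256 with acriflavine (adjusted p = 5.59e-08) against TGFb1 alone.

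CHGB was nearest to PROS1, the anticoagulant protein S, at 0.129, and to GALNT12, an enzyme of mucin-type glycosylation, at 0.162. PROS1 averaged 10.39 in valproate, 7.93 in acriflavine, 9.08 in TGFb1 and 9.06 in control arrays. SNAP25 was nearest to BEX3 (0.119) and CYB5R1 (0.123), with an SD of 0.342. TUBB3 was nearest to CCDC167 (0.123) and to PRPS1 (0.127), an enzyme of nucleotide synthesis that averaged 11.96 in valproate, 11.61 in acriflavine, 12.24 in TGFb1 and 11.24 in control arrays. SCG5 was nearest to HOXD10 and TPI1, and NEFL to SERPINA12 and PRAMEF8, at 0.0576 to 0.125, with SDs of 0.112 for SCG5 and 0.220 for NEFL. For such narrow profiles a small difference separates few genes, and the likeness carries little.

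**Figure D4:**
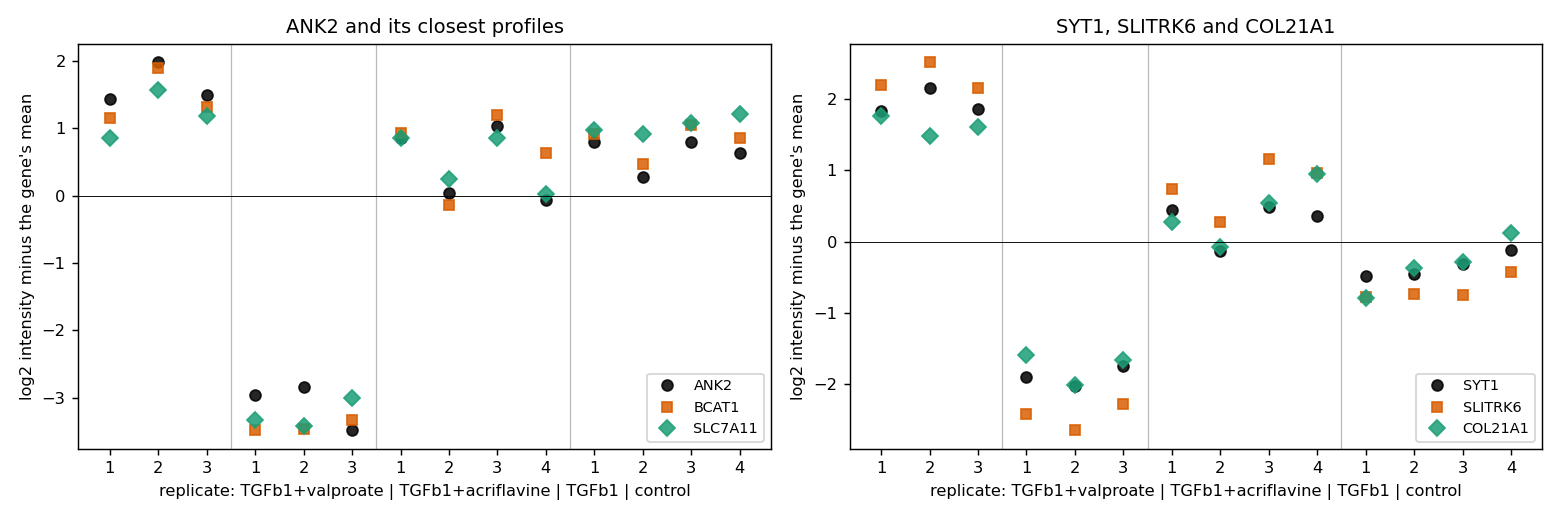
Log2 intensity minus each gene's own mean in every array, in the order TGFb1+valproate, TGFb1+acriflavine, TGFb1 and control, for ANK2 with BCAT1 and SLC7A11 (left) and for SYT1 with SLITRK6 and COL21A1 (right). ANK2, BCAT1 and SLC7A11 lie near -3 in the 3 acriflavine arrays. TGFb1 replicate 2 is the lowest or second lowest TGFb1 array for each of the 6 genes plotted.

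Other genes of the same machinery were taken from 9 lists that leave out the 8 genes and hold 247 measured genes. With valproate against TGFb1 alone, the list counts are read against 11.5% of all genes that rose and 10.2% that fell. Of 51 genes of vesicle SNAREs and exocytosis, 14 rose and 0 fell, with a median of 0.20 against -0.02 for all genes. They were led by UNC13A, a vesicle priming factor (1.89 ± 0.149, adjusted p = 8.40e-07), SV2A, a synaptic vesicle glycoprotein (1.18), and RAB3B (1.03). SYP, synaptophysin, rose by 0.60 (adjusted p = 0.0394) and SNAP23, the widely expressed relative of SNAP25, by 0.42 (adjusted p = 0.00524). Of 23 other synaptotagmins and relatives, 6 rose and 2 fell with a median of 0.02, with SYT13 at 1.68, SYT11 at 1.35 and SYT9 at 0.77 among the rises. Among granins, prohormone enzymes and peptide hormones 9 of 31 rose and 0 fell, with a median of 0.19. The largest rises there were those of SCG2, secretogranin II (2.47 ± 0.365, adjusted p = 0.000184), UCHL1, a ubiquitin hydrolase of neurons (2.15), and PCSK1N, an inhibitor of a prohormone convertase (1.77). CHGA, chromogranin A, was dim and differed by -0.04 (adjusted p = 0.825).

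Among the cytoskeletal and surface lists, 10 of 32 tubulins and neuronal microtubule proteins rose and 3 fell with valproate, with a median of 0.18. Over all genes 11.5% rose and 10.2% fell in this comparison. STMN3 (0.91), MAPT, the protein tau (0.88), and KIF1A, an axonal motor (0.87), rose most, and TUBG1 changed by -0.75. Of the 8 neurofilament-related genes, 3 rose and 0 fell, namely INA at 0.76, NES at 0.60 and PRPH at 0.47, while NEFM differed by -0.10 (adjusted p = 0.606). Of 21 ankyrins, spectrins and axon initial segment genes, 2 rose (9.52%), NFASC (0.56) and L1CAM (0.54), and 0 fell. That share of rises is under the 11.5% of all genes, and ANK3 differed by 0.11 (adjusted p = 0.457). In the list of SLITRK, leucine-rich and synaptic adhesion proteins, 7 of 32 rose and 1 fell, with SLITRK2 at 1.70, LRRC4B at 1.26 and CADM1 at 0.71, and with SLITRK5 the gene that fell (-0.32). SLITRK2 averaged 7.10 in valproate, 5.40 in TGFb1 and 6.94 in control arrays, so its valproate level was near that of control. Without the replicates 4 the valproate counts were 21 and 3 for SNAREs, 10 and 2 for granins, 10 and 6 for microtubule proteins and 8 and 1 for adhesion proteins. They were 7 and 3 for synaptotagmins, 5 and 0 for neurofilament-related genes and 2 and 1 for ankyrins and spectrins, where 17.3% of all genes rose and 15.7% fell.

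Genes of the repressor side were read beside them. Of 20 genes of the REST complex, 0 rose and 4 fell with valproate against TGFb1 alone, with a median of -0.07, where 11.5% of all genes rose and 10.2% fell. SIN3A, a corepressor scaffold, changed by -0.59 (adjusted p = 0.00621), SMARCA4 by -0.38 and CTDSP1 by -0.33. REST itself differed by -0.26 ± 0.0979 with valproate (adjusted p = 0.0765) and by -0.21 ± 0.0979 with acriflavine (adjusted p = 0.138). RCOR1, HDAC1 and HDAC2 differed by -0.21, 0.11 and 0.03 with valproate and did not pass. Of 29 neuroendocrine and neuronal transcription factors, ONECUT2 (0.97) and MNX1 (0.73) rose with valproate and 0 fell, with a median of -0.01. Without the replicates 4 the REST complex had 1 rise and 4 falls with valproate and the transcription factors 2 and 2. Over all genes 17.3% then rose and 15.7% fell.

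With acriflavine against TGFb1 alone the same lists were mixed, and are read against 16.4% of all genes that rose and 12.3% that fell. Of the 51 SNARE and exocytosis genes, 12 rose and 3 fell with a median of 0.07 against -0.0021 for all genes: RAB3B (1.35), NAPA (1.09) and STX3 (1.01) rose most, and STX2 (-0.76), SV2A (-0.66) and DOC2B (-0.45) fell. Of the other synaptotagmins 2 of 23 rose, SYTL2 and SYT11, and 0 fell. Among granins and hormones 7 of 31 rose and 4 fell with a median of -0.03. There VGF, a neuroendocrine secretory protein, rose by 1.59 ± 0.224 (adjusted p = 8.50e-05), CCK, cholecystokinin, by 1.42 and SCG2 by 1.26, whereas TAC1, the substance P precursor, changed by -1.45, PTPRN2 by -0.80 and CPE, carboxypeptidase E, by -0.62. Against TGFb1 alone SCG2 therefore rose with each inhibitor, while CHGB rose with valproate and fell with acriflavine. SCG2 averaged 6.95 in acriflavine, 5.69 in TGFb1 and 6.70 in control arrays. Its difference between acriflavine with TGFb1 and control was 0.25 (adjusted p = 0.687), and between TGFb1 alone and control -1.01 (adjusted p = 0.0725).

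Microtubule proteins included 4 of 32 that rose and 8 that fell with acriflavine, with a median of -0.09. MAP1B changed by -1.80 ± 0.155 (adjusted p = 9.83e-07), MAP2 by -1.52 and MAP7 by -1.11, and DPYSL4 rose by 0.93. Of the 8 neurofilament-related genes INA, NES and NEFH rose by 0.63, 0.47 and 0.36. Of 21 ankyrin and spectrin genes 2 rose and 2 fell, the falls being NFASC (-0.66) and L1CAM (-0.37), where ANK2 changed by -3.56. Of the 32 adhesion genes 2 rose and 4 fell, with SLIT3, a guidance ligand, at -1.45 and ROBO1, a guidance receptor, at -1.08. In the REST complex 1 of 20 rose and 4 fell, and among the transcription factors 4 of 29 rose and 3 fell, with HES6 at 0.73 and SOX4 at -0.98. Without the replicates 4, where 21.8% of all genes rose and 17.2% fell with acriflavine, the counts of rises and falls were 15 and 7 for SNAREs, 3 and 0 for synaptotagmins and 7 and 7 for granins. They were 5 and 11 for microtubule proteins, 4 and 0 for neurofilament-related genes, 2 and 2 for ankyrins and spectrins and 2 and 6 for adhesion proteins. The REST complex then had 4 rises and 6 falls, and the transcription factors 4 and 3.

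**Figure D5:**
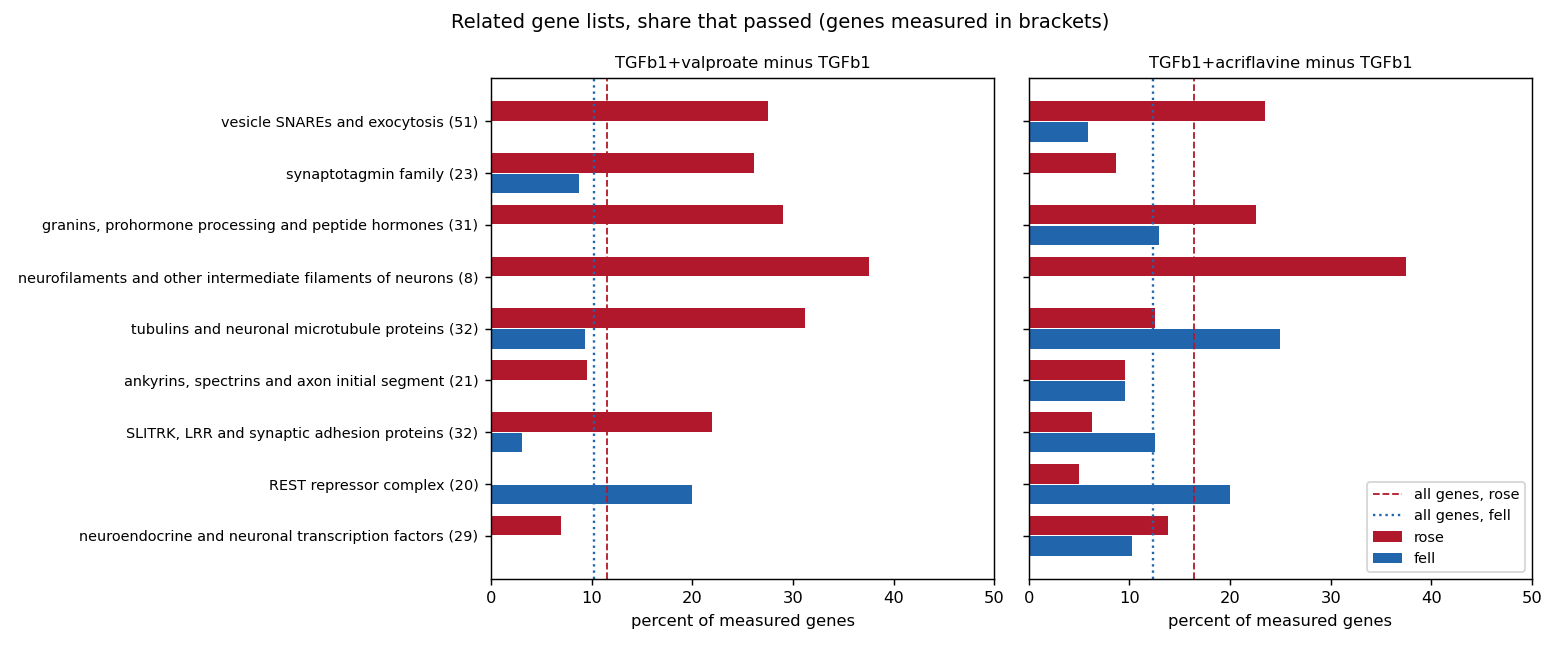
Share of the measured genes of each list that rose (red) or fell (blue) for TGFb1+valproate minus TGFb1 (left) and TGFb1+acriflavine minus TGFb1 (right), with the number measured in brackets. Vertical lines give the shares over all genes, 11.5% and 10.2% at left and 16.4% and 12.3% at right. The SNARE list reached 27.5% risen and 0% fallen at left, and 23.5% and 5.88% at right.

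For TGFb1 alone against control, of the SNARE list 0 of 51 rose and 6 fell, led by SYNGR3 (-1.16), STX3 (-0.63) and SYNGR2 (-0.55), where 5.03% of all genes rose and 6.05% fell. Of the granin list 3 of 31 rose and 2 fell, of microtubule proteins 3 of 32 rose and 1 fell, and of the REST complex 2 of 20 rose and 0 fell. In the other 5 lists at most 1 gene rose and at most 1 fell. Without the replicates 4 the granin list had 3 rises and 6 falls, microtubule proteins 6 and 1, SNAREs 1 and 6 and the REST complex 3 and 0. Each of the other 5 lists then had at most 2 rises and 2 falls, where 7.71% of all genes rose and 9.61% fell. TUBA4A, an alpha-tubulin, rose by 3.16 ± 0.0927 (adjusted p = 9.80e-11), GAL, the precursor of galanin, by 1.20 and NES, nestin, by 0.86. SLITRK2 changed by -1.54 (adjusted p = 2.50e-05), where SLITRK6 rose by 1.46. REST differed by 0.0050 ± 0.0907 (adjusted p = 0.984).

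Markers of cell types were read beside these results. Of 8 measured markers of ductal epithelium, KRT8, KRT18, KRT19 and SOX9 had means over all arrays of 13.51, 13.72, 12.48 and 12.44, while EPCAM, KRT7 and MUC1 lay at 10.06, 9.35 and 9.31 and CFTR at 4.50. Their mean level spanned 10.50 to 10.63 in valproate, 10.918 to 10.997 in acriflavine, 10.19 to 10.51 in TGFb1 and 10.78 to 10.95 in control arrays. With acriflavine against TGFb1 alone 5 of the 8 rose and 0 fell, led by EPCAM (1.97), where 16.4% of all genes rose and 12.3% fell. With valproate KRT7 (1.37) and EPCAM (0.67) rose and MUC1 fell (-0.31), where 11.5% of all genes rose and 10.2% fell. With TGFb1 alone against control EPCAM (-1.38), KRT18 (-0.62) and KRT8 (-0.57) fell and 0 rose, where 6.05% of all genes fell and 5.03% rose.

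Of 11 neuron markers 9 lay among the dimmest 40% of genes, and the mean level of that list spanned 6.24 to 6.31 in valproate, 5.84 to 6.04 in acriflavine, 5.99 to 6.10 in TGFb1 and 6.08 to 6.11 in control arrays. Against TGFb1 alone 3 of the 11 rose with valproate, SLC17A7 by 0.71, MAP2 by 0.56 and SYN1 by 0.52, where 11.5% of all genes rose. With valproate against control MAP2 differed by 0.28 (adjusted p = 0.227), while SLC17A7 and SYN1 rose by 0.86 and 0.50. With acriflavine 1 of the 11 fell (9.09%), MAP2, where 12.3% of all genes fell. For 7 measured neuroendocrine markers the mean level spanned 6.50 to 6.67 in valproate, 6.29 to 6.31 in acriflavine, 6.03 to 6.28 in TGFb1 and 6.23 to 6.32 in control arrays. SYP, DDC, NCAM1 and SCG2 had means over all arrays of 8.80, 7.30, 7.12 and 6.78, and CHGA, INSM1 and SCG3 of 5.33, 4.58 and 4.17. Against TGFb1 alone SYP and SCG2 rose with valproate, and SCG2 rose with acriflavine, where it averaged 6.95 against 6.70 in control arrays. The label of the gene set names what its members are known for, and the type of the cells is that of the cell line.

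Some markers of other cell types moved with each inhibitor against TGFb1 alone. Over all genes 11.5% rose and 10.2% fell with valproate, and 16.4% rose and 12.3% fell with acriflavine. LUM and THY1, 2 of 6 fibroblast markers, rose by 2.63 and 1.40 with valproate, and the mean of that list spanned 6.13 to 6.27 in valproate, 5.42 to 5.58 in acriflavine, 5.44 to 5.72 in TGFb1 and 5.27 to 5.38 in control arrays. THY1 also rose by 0.95 with TGFb1 alone over control. Of 5 measured leukocyte markers, CD14 and CD68 rose by 0.69 and 0.45 with valproate, while with acriflavine LST1 rose by 0.48 and CD68 fell (-0.76). Their means over all arrays were 8.87 for CD68, 7.33 for LST1, 5.99 for CD3E, 4.78 for CD14 and 3.81 for PTPRC, and the mean level of the list spanned 6.27 to 6.40 in valproate, 6.09 to 6.17 in acriflavine, 5.89 to 6.33 in TGFb1 and 6.04 to 6.16 in control arrays. The 4 endothelial and 5 measured glial markers did not pass with either inhibitor against TGFb1 alone. Against control the glial marker MBP fell by -0.57 with TGFb1 alone (adjusted p = 0.0106), and by -0.84 and -0.53 with acriflavine and with valproate added. The part of other cell types in the changes of the 8 genes was not tested.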

How the data were processed

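RNA from 14 samples was read on expression arrays. As deposited, the table holds log2 intensity per probe set, which the authors computed by RMA in affy 1.44.0, per the submitters' processing notes. Which arrays were normalised together is not given in the sources used here, and the genome build of the files is not given either. Of 49193 probe sets, 44898 named 1 gene by the platform annotation, 1825 several and 2470 none here. A RefSeq table matched 44871 of the probe sets by gene identifier and changed 0 symbols.

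Each of 18129 genes was represented by its brightest probe set on average over the 14 arrays. One model with a mean per group was fitted to all 14 arrays with limma 3.58.1 in R 4.3.3 (lmFit and eBayes), and 6 comparisons were tested at an adjusted p of 0.05 over all genes. No limit on brightness was set; 5 of the 8 genes had a mean above the dimmest 40% of genes (6.89). The fit was tested on simulated data with known changes. Replicates were called paired where deviations from the group means correlated above 0.1 in every replicate. They did so between TGFb1 and control (0.318, 0.342, 0.419 and 0.674) and in no other comparison. The fit behind the printed standard errors and adjusted p values held no term for this pairing. The replicate block was fitted as an alternative only.

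The members, the 9 gene lists, the 7 marker lists and the tests were chosen with earlier results of these data known. Named genes were the 8 members with all their probe sets, up to 3 rises and 3 falls of each list and comparison, a short set of reference genes, and the 2 nearest profiles of each member. Markers named beside them were chosen after their values were seen. Of the 27 alternatives to the fit, those on probe sets, brightness, scaling, variance, blocks and left-out arrays are given under the processing dependence. Counts of the lists without the replicates 4 were added after the data were seen. Plots used matplotlib 3.10.9 (Python 3.11.15).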

Additional observations from a re-analysis of the deposited data

Results flagged for a closer look

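In 2 of the 16 groups of 4 arrays examined, 1 array lay far from the other 3 for its gene by Dixon's test, and both were control replicate 4. SNAP25 read 6.64 in that array, against 5.95 to 5.98 in the other control arrays. SLITRK6 read 7.00 there, against 6.65 to 6.71. Chance gives such a gap in about 1 of 20 groups. Without control replicate 4, SNAP25 differed by 0.15 between TGFb1 and control, against -0.01 with it.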

How the results depend on the processing

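Over the 27 alternatives and the 8 genes in 6 comparisons, 1196 values kept their direction and their side of the threshold, 30 lost and 17 gained a call, and 29 changed sign, none of which passed. The calls of SYT1, SLITRK6, CHGB and ANK2 for either inhibitor against TGFb1 alone were kept under every alternative. The mean of the probe sets took ANK2 with acriflavine to -1.18. At a minimum fold of 2, 1 of the 8 genes was called for TGFb1 against control, in place of 3; the fold limit itself removes the smaller changes. Over all genes, that limit left 321 to 1596 calls, where the fit made 2009 to 6441; each probe set alone gave 4478 to 15352. For TGFb1 against control the calls over all genes were 1018 with those groups alone, 1117 at an adjusted p of 0.01, 3235 without TGFb1 replicate 4, 3141 without the replicates 4, 3319 with the replicate block and 3694 with a term for the replicates 4. For valproate against TGFb1 they were 5980 without the replicates 4 and 2544 at 0.01, against 3927, and for valproate against control 3064 at 0.01, against 4608.

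The replicate block changed no call of these genes for TGFb1 against control, which was called paired but had no block in the main fit. In unpaired comparisons it gave TUBB3 with acriflavine against control 0.37 (adjusted p = 0.0329), NEFL in that comparison -0.058 and TUBB3 with valproate against TGFb1 0.070, and a term for the replicates 4 gave 0.37, -0.058 and 0.070. Leaving out the replicates 4 together gave 0.024 for ANK2 and 0.10 for SNAP25 (TGFb1 against control), -0.031 for NEFL (acriflavine against control), -0.023 for NEFL and 0.093 for TUBB3 (valproate against TGFb1). The mean of probe sets gave NEFL -0.040 (acriflavine against control), -0.13 (acriflavine against valproate) and 0.095 (valproate against control). Median centring gave SCG5 -0.018 (valproate against TGFb1).

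Leaving out 1 array at a time, values that changed sign ranged, for TGFb1 against control, from -0.35 to 0.020 for ANK2, from -0.013 to 0.23 for CHGB and from -0.093 to 0.15 for SNAP25. For valproate against TGFb1 they ranged from -0.023 to 0.26 for NEFL, from -0.030 to 0.038 for SCG5 and from -0.16 to 0.093 for TUBB3. NEFL ranged from -0.051 to 0.12 for acriflavine against control, from -0.0075 to 0.13 for acriflavine against valproate and from -0.10 to 0.050 for valproate against control. SCG5 with acriflavine against TGFb1 alone passed in 9 of the 26 alternatives that hold it, and TUBB3 for acriflavine against valproate was lost in 10 of 26. The cause of these shifts was not tested. SNAP25, SCG5 and NEFL in all groups and ANK2 and SLITRK6 with acriflavine are dim, where signal over background limits what can be read. With acriflavine SYT1 (6.27) and CHGB (6.54) lay within the span of the SNAP25 group means, 5.96 to 6.71, and the same limit holds for their folds.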
